A study of Mus musculus with 16 samples.

Results

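The 6 glucocorticoid-responsive genes Nr3c1, Fkbp5, Tsc22d3, Ddit4, Sgk1 and Klf9 were followed in splenic B cells of mice on 4 diets. They were picked by gene name with earlier results of these data known, so the share of members called is a description, and they make up 6 of the 39179 genes in the count table. All 6 passed the filter on low counts, which 15021 genes passed. The libraries came from poly(A) RNA of B cells of NOD.LT mice, a line of the non-obese diabetic strain, aged 15 weeks and kept on their diet for 5 weeks. The control diet NP is named Gordons in the treatment text. The other 3 diets are HAMS, which holds high-amylose maize starch, HAMSA, whose starch carries acetate, and HAMSB, whose starch carries butyrate. All 4 groups share the strain, the age and the feeding time, and no other treatment is given in the labels. Each diet has 4 libraries, which keep their label numbers here. NP has 1, 3, 4 and 5, while HAMS has 1, 4, 5 and 6, HAMSA has 1, 2, 3 and 6, and lastly HAMSB has 1, 2, 5 and 6. The labels do not tie a number to an animal, so the p-values measure the spread between these libraries, which may be technical in part. The B cells were left over after antibodies and columns had removed other spleen cells, and such cells can remain in the preparation.

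Glucocorticoids are steroid hormones of the adrenal gland that enter cells and bind the glucocorticoid receptor, the protein made from Nr3c1. The receptor is held ready by heat shock protein chaperones, moves to the nucleus when it binds hormone, and raises or lowers the transcription of its target genes. In lymphocytes the hormone is known for lowering inflammatory gene expression and for promoting death of immature cells. Several of these genes also respond to other signals, among them energy stress, hypoxia, cyclic AMP and Foxo factors for Ddit4 and Tsc22d3, so a change in one of them is no measure of hormone by itself. No hormone level was among the data analysed here.

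Ddit4, an inhibitor of the growth kinase complex mTORC1, and Tsc22d3, which encodes the leucine zipper protein GILZ, were highest on HAMS and lowest on HAMSB, and neither overlapped between those diets. Ddit4 was 4.75-fold and Tsc22d3 4.04-fold lower on HAMSB than on HAMS. The receptor gene Nr3c1, the co-chaperone gene Fkbp5, the kinase gene Sgk1 and the transcription factor gene Klf9 did not pass the test in any comparison of diets, nor in the test for any difference among the diets (adjusted p = 0.238, 0.199, 0.391 and 0.752, edgeR's quasi-likelihood test). In that test Ddit4 had an adjusted p of 0.00110 and Tsc22d3 of 0.00262, so 2 of 6 members passed it, against 3.78% of all genes tested.

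Library totals ranged from 15053965 to 46206200 counts. HAMSA libraries were the shallowest, at 15053965 to 30723337. The variation between libraries of a diet that the model found across genes was 22.1%. The defining B cell markers Cd79a, Cd79b, Ms4a1, Pax5, Cd22, Blk and Fcmr were present everywhere, with a summed level of 8122 to 10589 CPM (read counts relative to the library's TMM-scaled total) in the 16 libraries. Markers of other cells summed to lower levels, and erythroid markers reached 6239 CPM in HAMSA 6 (range 448 to 6239 on HAMSA, 20.5 to 99.8 on HAMS, 69.2 to 1412 on NP and 16.98 to 1377 on HAMSB). These are bulk libraries, in which fewer cells of a type and less RNA per cell cannot be told apart.

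Levels can be compared between the 6 genes only per length, as CPM divided by the exon length in kilobases (RPKM). On that scale Tsc22d3 was the most abundant at a mean of 99.1 RPKM over the 16 libraries (35.7 to 204), and Ddit4 followed at 88.2 RPKM (26.2 to 160). Nr3c1 averaged 33.3 RPKM (19.3 to 55.2) and Fkbp5 13.8 RPKM (4.89 to 27.0). Sgk1 and Klf9 were scarce, at 3.80 RPKM (2.47 to 5.21) and 1.03 RPKM (0.705 to 1.47). Klf9 rested on 51 to 243 reads a library and Sgk1 on 182 to 1081, so both carry more counting error than the other members.

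**Figure D1:**
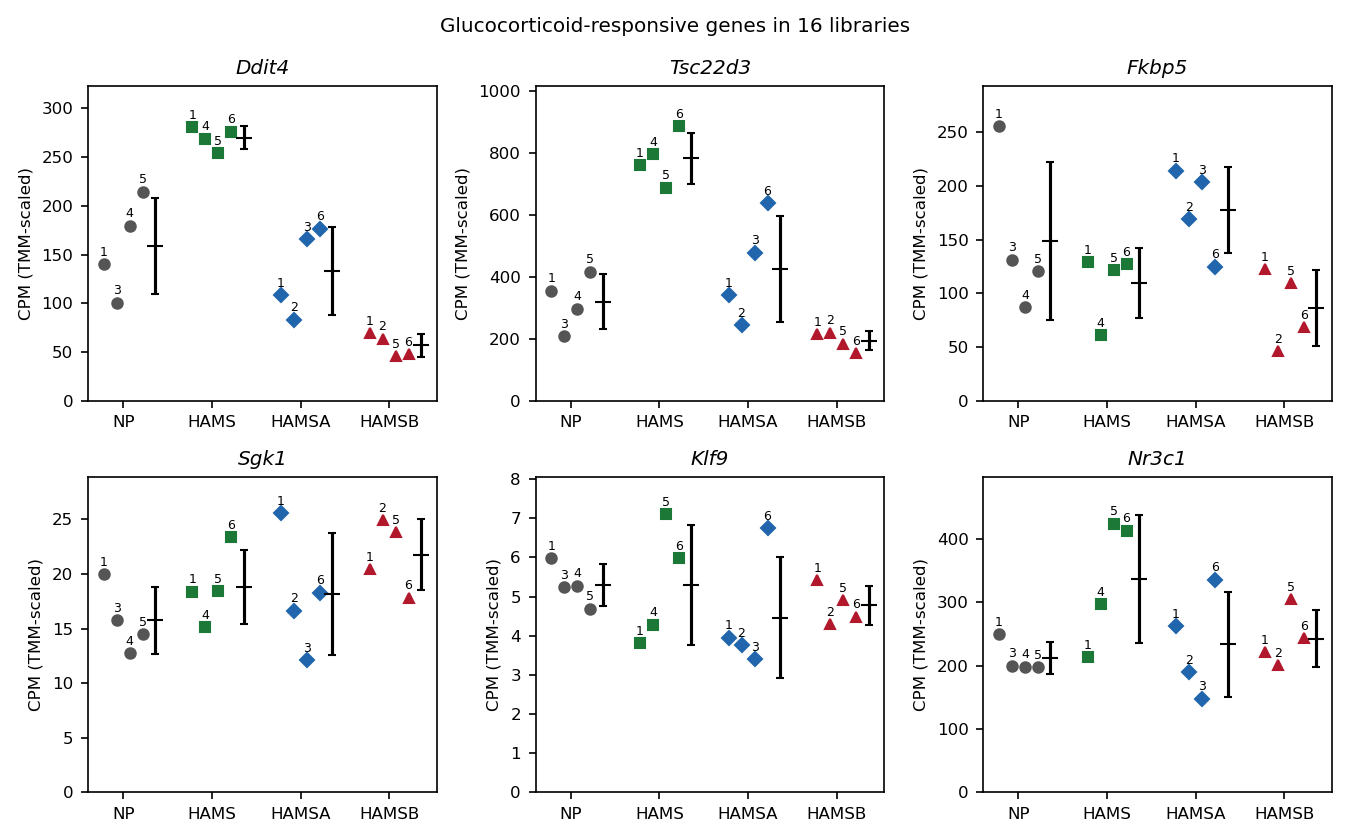
Level of each of the 6 genes in every library, as TMM-scaled CPM on the y axis (each panel has its own scale, starting at 0), with the diets on the x axis, the library number beside each point, and the mean with the SD of 4 libraries as a bar. Ddit4 and Tsc22d3 sit highest on HAMS and lowest on HAMSB without overlap of these diets, while in the other 4 panels HAMS and HAMSB overlap. For Tsc22d3, HAMSB overlaps NP.

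Nr3c1, the receptor gene (ENSMUSG00000024431, chr18:39410545-39519421, minus strand, GRCm38 with GENCODE M21 here and below), overlapped between all diets. Its levels were 249, 200.2, 199 and 198 CPM on NP and 213, 297, 424 and 413 CPM on HAMS, each list in the order of the library numbers. On HAMSA it stood at 262, 189, 148 and 336 CPM and on HAMSB at 221, 201, 305 and 243 CPM. The high values of HAMS 5 and HAMS 6 stood above all other libraries, while HAMS 1 lay inside the range of NP. The mean was 337 ± 100 CPM on HAMS (SD, n = 4), 243 ± 45.1 on HAMSB, 234 ± 82.7 on HAMSA and 211 ± 25.3 on NP. The largest difference of Nr3c1 was that of HAMS against NP, a log2 fold change of 0.67 ± 0.24 (SE; 95% interval 0.16 to 1.18), with an adjusted p of 0.133 in edgeR's quasi-likelihood test. No neighbours in this order of diets differed beyond their spread.

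Fkbp5 (ENSMUSG00000024222, chr17:28399094-28517527, minus strand) encodes a co-chaperone that binds the receptor complex, lowers its affinity for hormone, and is itself a well-known receptor target. It read 256, 131, 87.4 and 121 CPM on NP and 129, 61.4, 122 and 127 CPM on HAMS. HAMSA gave 214, 169, 203 and 125 CPM and HAMSB 122, 46.3, 110 and 68.7 CPM. Thus NP 1 was the highest library of all and HAMSB 2 the lowest, and the order of means was HAMSA (178 ± 40.1), NP (149 ± 73.7), HAMS (110 ± 32.5) and HAMSB (86.8 ± 35.4 CPM, SD, n = 4). Fkbp5 therefore had its lowest mean on the same diet as Ddit4 and Tsc22d3, while its mean on HAMS was below that on NP with wide overlap (adjusted p = 0.519). HAMSA and HAMSB, the ends of the order, did not overlap (log2 fold change 1.04 ± 0.34, 95% interval 0.30 to 1.77), with an adjusted p of 0.160 in edgeR's test.

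Tsc22d3 (ENSMUSG00000031431, chrX:140539528-140600659, minus strand) encodes GILZ, a protein known for restraining inflammatory signalling in leukocytes. Its levels were 356, 209, 297 and 417 CPM on NP, and 760, 795, 688 and 887 CPM on HAMS. It stood at 341, 243, 479 and 638 CPM on HAMSA and at 216, 220, 185 and 155 CPM on HAMSB. All 4 HAMS libraries exceeded every other library, and all HAMSB libraries lay below those of HAMS and HAMSA but overlapped the range of NP, whose NP 3 is low. The means fell in the order HAMS (783 ± 82.5), HAMSA (425 ± 172), NP (320 ± 88.4) and HAMSB (194 ± 30.4 CPM, SD, n = 4). HAMSA and NP, neighbours in that order, did not differ beyond their spread (log2 fold change 0.41, 95% interval -0.11 to 0.94, adjusted p = 0.301 in edgeR's test). HAMSB against NP had a log2 fold change of -0.72 with a 95% interval of -1.25 to -0.19, which lies below 0, but did not pass after adjustment over all genes (adjusted p = 0.452 in edgeR's test).

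Ddit4 (ENSMUSG00000020108, chr10:59949669-59951834, minus strand) encodes REDD1, which releases the TSC complex to turn down mTORC1, a driver of protein synthesis. It measured 140, 101, 180 and 215 CPM on NP and 281, 269, 254 and 276 CPM on HAMS. HAMSA libraries held 108, 83.4, 166 and 177 CPM and HAMSB libraries 69.6, 64.0, 46.0 and 48.0 CPM. HAMS lay above and HAMSB below every library of the other diets, whereas NP and HAMSA overlapped. The order of means was HAMS (270 ± 11.8), NP (159 ± 49.3), HAMSA (134 ± 45.0) and HAMSB (56.9 ± 11.7 CPM, SD, n = 4), with NP and HAMSA not differing beyond their spread (log2 fold change -0.25 for HAMSA minus NP, 95% interval -0.75 to 0.25, adjusted p = 0.514 in edgeR's test).

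Sgk1 (ENSMUSG00000019970, chr10:21882184-21999903, plus strand) encodes a kinase of ion transport and cell survival that serum and glucocorticoids induce in many cells. On NP it gave 19.98, 15.8, 12.8 and 14.5 CPM and on HAMS 18.4, 15.2, 18.4 and 23.4 CPM. On HAMSA it gave 25.6, 16.6, 12.1 and 18.3 CPM and on HAMSB 20.4, 24.9, 23.8 and 17.8 CPM. All diets overlapped, and HAMSB, the lowest diet for Ddit4 and Tsc22d3, had the highest mean for Sgk1 at 21.8 ± 3.24 CPM (SD, n = 4). The other means were 18.8 ± 3.39 on HAMS, 18.2 ± 5.58 on HAMSA and 15.8 ± 3.07 on NP. The widest difference of Sgk1, HAMSB minus NP, had a log2 fold change of 0.47 ± 0.20 (95% interval 0.04 to 0.89) and an adjusted p of 0.651 in edgeR's test.

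Klf9 (ENSMUSG00000033863, chr19:23141226-23168134, plus strand) encodes a Krüppel-like transcription factor and is a direct receptor target in several tissues. Its levels were 5.99, 5.23, 5.28 and 4.69 CPM on NP and 3.80, 4.28, 7.10 and 5.98 CPM on HAMS. They were 3.95, 3.76, 3.40 and 6.74 CPM on HAMSA and 5.42, 4.29, 4.91 and 4.49 CPM on HAMSB. The means, 5.30 ± 0.532 on NP, 5.29 ± 1.53 on HAMS, 4.78 ± 0.499 on HAMSB and 4.46 ± 1.54 CPM on HAMSA (SD, n = 4), lay closer together in ratio than those of any other member, and all diets overlapped. The widest 95% interval limits of Klf9 over the 6 comparisons were log2 fold changes of -0.74 and 0.48.

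Promoter sequences were taken from RefSeq for 5 of the 6 members, with 12 start sites in all. The window of 250 bases before each start was searched on both strands for 6 motifs. Of 32851 mouse promoters of the same length, 0.387% hold the glucocorticoid response element, written as GNACA and TGTNC with 3 free bases between them, and 16.1% hold its hexamer TGTTCT, which can lie inside the full element. The cAMP response element TGACGTCA occurs in 1.55%, the forkhead site TGTTTAC in 3.17%, the heat shock element (GAA, TTC and GAA with 2 free bases between neighbours) in 0.466%, and the NF-Y box CCAAT in 33.8%. Printed below are the upstream sequences of Ddit4, of the first start site of Tsc22d3, and of the 1 start site with a full glucocorticoid element. They come from GRCm38.p6 in the direction of the gene, without bases that GENCODE places in exons. Capitals mark motif matches on either strand. Distances count to the RefSeq start, which for Ddit4 and Tsc22d3 lies past the printed end because exon bases were left out.
Ddit4 promoter, chr10:59951835-59952020, minus strand: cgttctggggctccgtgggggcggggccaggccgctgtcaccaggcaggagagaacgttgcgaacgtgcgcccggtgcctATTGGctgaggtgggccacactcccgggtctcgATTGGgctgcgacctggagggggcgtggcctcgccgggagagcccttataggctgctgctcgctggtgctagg
Tsc22d3 promoter of its first start, chrX:140600660-140600772, minus strand: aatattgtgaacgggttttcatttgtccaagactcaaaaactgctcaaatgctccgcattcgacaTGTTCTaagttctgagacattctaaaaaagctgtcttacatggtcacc
Sgk1 promoter of its start 5, chr10:21993640-21993889, plus strand: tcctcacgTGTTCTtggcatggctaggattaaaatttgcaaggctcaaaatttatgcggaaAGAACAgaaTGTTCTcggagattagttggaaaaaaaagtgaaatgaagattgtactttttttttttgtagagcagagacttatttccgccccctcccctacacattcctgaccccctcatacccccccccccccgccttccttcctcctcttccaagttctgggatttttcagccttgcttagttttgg
The capitals in Ddit4 are a pair of NF-Y boxes read on the other strand (ATTGG), 170 and 137 bases before the start. The capitals in Tsc22d3 are 1 hexamer, 185 bases before the first start. The windows of its starts 2 and 3 held 0 matches to the 6 motifs. Which start the B cells use was not tested. The Sgk1 window holds the full element GAACAGAATGTTC, 188 bases before the start, made of hexamers on both strands, and a further hexamer upstream, yet Sgk1 did not change between diets by the test used here. Neither the cAMP response element nor the heat shock element occurs in any of the 12 windows. A match of letters is a description of the sequence only, and elements outside these windows were not searched.

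The comparison of HAMSB with HAMS asks what the butyrate carried by the starch adds to the starch itself. Ddit4 and Tsc22d3 fell and the other 4 members did not pass the test, so 2 of 6 members were called lower, against 1.68% of all genes called (1.24% called lower). Ddit4 fell by 2.25 ± 0.25 on the log2 scale (SE; 95% interval of the log2 fold change -2.77 to -1.72, adjusted p = 0.000312) and ranked 5 among 15021 genes by p. Tsc22d3 fell by 2.01 ± 0.26 on the log2 scale (95% interval -2.56 to -1.47, adjusted p = 0.000833) and ranked 13. Groups that do not overlap, which both genes showed, occurred in 7.3% of genes (4.11% lower on HAMSB). The log2 fold changes of the others were -0.47 ± 0.24 for Nr3c1 (adjusted p = 0.401), -0.34 ± 0.34 for Fkbp5 (adjusted p = 0.706), 0.21 ± 0.20 for Sgk1 (adjusted p = 0.692) and -0.15 ± 0.23 for Klf9 (adjusted p = 0.820), all from edgeR's quasi-likelihood test. Libraries numbered 1 to 4 alone gave -2.05 for Ddit4 and -1.84 for Tsc22d3 (adjusted p = 0.0228 and 0.0269), and libraries numbered 5 and 6 alone gave -2.50 and -2.22 (adjusted p = 0.00203 and 0.00478).

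The comparison of HAMSA with HAMS asks the same of acetate. Ddit4 and Tsc22d3 lay lower on HAMSA with no overlap, and none of the 6 members was called, nor was any gene (0% of 15021). At an unadjusted p under 0.05, 3 members and 1751 genes (11.7%) stood out in edgeR's test, while limma voom called 0 genes and DESeq2 called 103, among them Ddit4 (adjusted p = 0.0134). The log2 fold change of Ddit4 was -1.02 ± 0.24 (95% interval -1.52 to -0.51, adjusted p = 0.300) and that of Tsc22d3 -0.88 ± 0.25 (95% interval -1.41 to -0.35, adjusted p = 0.300). Non-overlapping groups occurred in 4.01% of genes here (1.31% lower on HAMSA). Fkbp5 had a log2 fold change of 0.70 ± 0.34 and Nr3c1 of -0.53 ± 0.24 (adjusted p = 0.439 and 0.418), and those of Sgk1 and Klf9 were -0.05 and -0.25.

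Between the esterified starches, HAMSA against HAMSB, both Ddit4 and Tsc22d3 were higher on HAMSA. Ddit4 rose by 1.23 ± 0.24 on the log2 scale (2.35-fold, adjusted p = 0.0268) and Tsc22d3 by 1.13 ± 0.25 (2.19-fold, adjusted p = 0.0477), so 2 of 6 members were called higher, against 0.779% of all genes called (0.586% called higher). Ddit4, Tsc22d3 and Fkbp5 had groups that did not overlap, which 8.81% of genes had (4.65% higher on HAMSA). Nr3c1, Sgk1 and Klf9 had log2 fold changes of -0.05, -0.25 and -0.10 (adjusted p of 0.464 or more in edgeR's test). These calls depended on the fit. Both were lost with only these 2 diets fitted (adjusted p = 0.161 for Ddit4 and 0.223 for Tsc22d3 in edgeR's test). They were also lost with the replicate block (0.134 and 0.181), where 2 genes in all were called against 117 without it. With the share of reads outside features as a covariate both were lost as well (0.304 and 0.387), at log2 fold changes of 1.16 and 1.099. That share did not overlap between these diets (9.76 to 12.1% on HAMSA, 12.6 to 16.9% on HAMSB), so this fit could hardly separate it from diet. Ddit4 also lost its call without HAMSA 3, HAMSB 1, HAMSB 5 or HAMSB 6 (adjusted p = 0.0854, 0.0516, 0.109 and 0.107), and Tsc22d3 kept its call only without NP 3 or HAMSA 2, with adjusted p between 0.0525 and 0.166 on leaving out any other library. Libraries numbered 1 to 4 alone gave log2 fold changes of 0.85 and 0.72 for Ddit4 and Tsc22d3 (adjusted p = 0.267 and 0.302), and those numbered 5 and 6, with HAMSA 6 as the lone HAMSA library, gave 1.91 for both (adjusted p = 0.00246 and 0.0138).

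HAMS against NP asks what the plain starch does. Tsc22d3 rose 2.45-fold, by 1.29 ± 0.25 on the log2 scale (95% interval 0.76 to 1.82, adjusted p = 0.00936), and was the 1 of 6 members called, against 4.33% of all genes called (2.27% called higher and 2.06% lower). Ddit4 had a log2 fold change of 0.77 ± 0.24 (95% interval 0.26 to 1.27), with no overlap of the groups and an adjusted p of 0.0849 in edgeR's test. Groups without overlap occurred in 12.6% of genes (6.06% higher on HAMS). Nr3c1 (0.67, adjusted p = 0.133), Sgk1 (0.26, adjusted p = 0.521), Fkbp5 (-0.44, adjusted p = 0.519) and Klf9 (0.00, adjusted p = 0.998) did not pass. The call of Tsc22d3 held without each library in turn, and among libraries numbered 5 and 6 alone, with NP 5 as the lone NP library, its log2 fold change was 0.91 (adjusted p = 0.156).

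HAMSB against NP called Ddit4, which fell by 1.48 ± 0.24 on the log2 scale (2.79-fold lower, 95% interval of the log2 fold change -1.99 to -0.97, adjusted p = 0.0390), so 1 of 6 members was called lower, against 0.0732% of all genes, or 11 genes, all lower. Ddit4 ranked 6 by p, and its groups did not overlap, as in 5.27% of genes (3.06% lower on HAMSB). Tsc22d3 (-0.72 ± 0.25, adjusted p = 0.452), Fkbp5 (-0.78 ± 0.34, adjusted p = 0.668) and Sgk1 (0.47 ± 0.20, adjusted p = 0.651) had 95% intervals on 1 side of 0 but did not pass edgeR's test. The call of Ddit4 was lost without NP 1, NP 4, NP 5, HAMS 5, HAMSB 2, HAMSB 5 or HAMSB 6, with adjusted p of 0.111, 0.111, 0.0638, 0.0552, 0.0879, 0.129 and 0.108. It was also lost with only these 2 diets fitted (adjusted p = 0.146), with the replicate block (0.311) and with libraries numbered 1 to 4 alone (0.131). HAMSA against NP called 0 of 6 members, against 1.41% of all genes (0.606% higher and 0.806% lower), and 0 members had an unadjusted p under 0.05 in edgeR's test, with 0 called by DESeq2 or limma voom. Its log2 fold changes ran from -0.25 for Ddit4 to 0.41 for Tsc22d3, and groups without overlap, which none of the members had, occurred in 16.4% of genes.

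**Figure D2:**
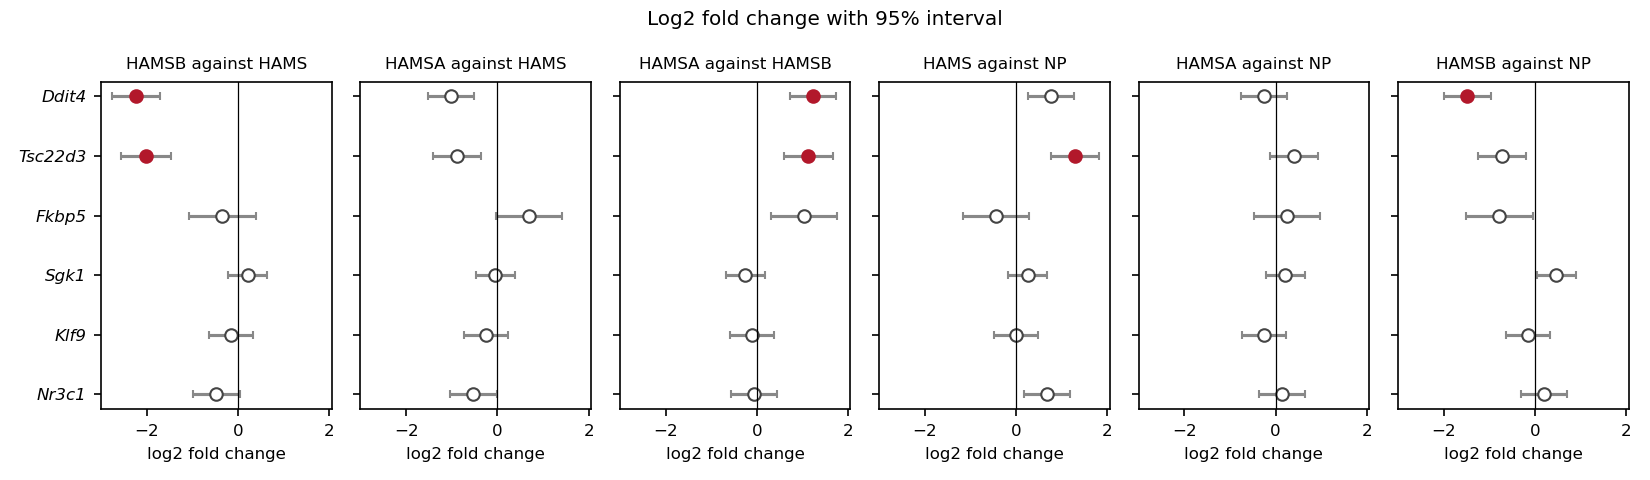
Log2 fold change (x axis) with its 95% interval for the 6 genes (rows) in the 6 comparisons of diets (panels), first diet minus second, and filled points where the adjusted p is under 0.05. Ddit4 and Tsc22d3 lie furthest from 0 in HAMSB against HAMS, at -2.25 and -2.01, and no other gene has a filled point; comparisons that share a diet are not independent.

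Markers of other states and cells moved with these diets. Of 9 genes known to respond to tissue handling (Fos, Jun, Junb, Egr1, Ier2, Atf3, Hspa1a, Hspa1b and Dusp1), 5 were lower on HAMSB than on HAMS, 5 were higher on HAMS than on NP, and 3 were higher on HAMSA than on HAMSB. On HAMSA against NP, where 0 of 6 members was called, 3 (Fos, Junb and Ier2) were higher, with a median log2 fold change of the list of 0.95. The shares of all genes called in these directions were 1.24%, 2.27%, 0.586% and 0.606%, in the order given. The other 2 comparisons called 0 of the 9 by edgeR. None of the 9 was at 0 in all libraries, and their summed level was 170 to 192 CPM on NP, 326 to 444 on HAMS, 269 to 444 on HAMSA and 172 to 251 on HAMSB. The sums of HAMS and HAMSA overlapped. Among libraries of 1 diet the sum had a correlation of -0.39 with Ddit4 and -0.10 with Tsc22d3 (Pearson, n = 16, diet means subtracted, adjusted p = 0.950 and 0.988 over 24 relations, permutation test; Spearman -0.44 and -0.15, adjusted p = 0.632 and 0.852). Without the 2 libraries with the most extreme sums, HAMSA 1 and HAMSA 3, the correlations were -0.24 and 0.09. The same sum had a correlation of 0.62 with Nr3c1 and 0.60 with Sgk1 (p = 0.0537 and 0.0462, adjusted p = 0.430 each over 24 relations, permutation test; Spearman 0.55 and 0.48, adjusted p = 0.627 each), and of 0.50 and 0.27 without those libraries. For Klf9 and Fkbp5 the values were 0.16 and 0.01. With diet differences kept in, the sum had a correlation over the 16 libraries of 0.66 with Tsc22d3, 0.54 with Nr3c1 and 0.44 with Ddit4, given as a description. Macrophage markers were lower on HAMS than on NP in 6 of 8 cases, against 2.06% of all genes called lower. Their summed level was 92.1 to 169 CPM on NP, 39.9 to 62.5 on HAMS, 66.6 to 91.9 on HAMSA and 45.5 to 92.8 on HAMSB. All 8 lay below 0 against NP on each of the 3 starch diets. The median log2 fold change was -2.02 on HAMS, -1.04 on HAMSA and -2.16 on HAMSB. On HAMSB against NP only C1qc was called lower, and on HAMSA against NP 0 were called. On HAMSA against NP the T cell marker Lck, the NK cell marker Ncr1 and the neutrophil marker Elane were higher (log2 fold changes 0.55, 3.35 and 3.72, adjusted p = 0.0477, 0.0477 and 0.04995 by edgeR). These lists were not raised on HAMSA alone. On HAMSB against NP, 9 of 9 T cell, 5 of 6 NK cell and 7 of 7 neutrophil markers lay above 0. Their median log2 fold changes there were 3.16, 3.08 and 2.49, with 0 called. On HAMS against NP the medians were 1.65, 1.31 and 1.09, also with 0 called. The B cell marker Cd22 was lower on HAMSA and on HAMS than on NP (-0.47 and -0.46), and the plasma cell marker Xbp1 was higher on HAMS than on NP (0.37). Neither stands for its list. Against NP, 4 of 7 B cell markers lay above 0 on HAMSA and 3 of 7 on HAMS, with medians of 0.15 and -0.03. Of the 4 plasma cell markers 3 lay above 0 on HAMS against NP, and Prdm1 lay at -0.43 without a call. The part of these markers in the members' differences was not tested.

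Libraries of 1 diet also showed which members varied together. After each diet's mean was subtracted, 2 of 15 pairs of members passed the permutation test over the 16 libraries. Ddit4 and Tsc22d3 had a Pearson r of 0.894 (p = 0.00134, adjusted p = 0.0130) and a Spearman rho of 0.809 (adjusted p = 0.115). Klf9 and Nr3c1 had a Pearson r of 0.847 (p = 0.00174, adjusted p = 0.0130) and a Spearman rho of 0.853 (adjusted p = 0.0237). Both relations rest in part on the extreme libraries. Without HAMSA 2 and NP 3 the r of Ddit4 and Tsc22d3 was 0.757 (adjusted p = 0.224), and without HAMSA 6 and HAMS 5 that of Klf9 and Nr3c1 was 0.764 (adjusted p = 0.201). The other 13 pairs had an adjusted p of 0.446 or more. Ddit4 and Fkbp5, both known receptor targets, had an r of -0.209 (adjusted p = 0.856), and Ddit4 and Nr3c1 one of -0.087 (adjusted p = 0.885). Nr3c1 had an r of 0.592 with the percent of reads that fell outside annotated features (p = 0.0423, adjusted p = 0.430 over 24 relations, Spearman rho 0.75, adjusted p = 0.274), and 0.589 without HAMS 4 and HAMS 5. Klf9 had an r of 0.519 with the same measure (adjusted p = 0.524), and the part of that measure in the relation of Klf9 with Nr3c1 was not tested.

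**Figure D3:**
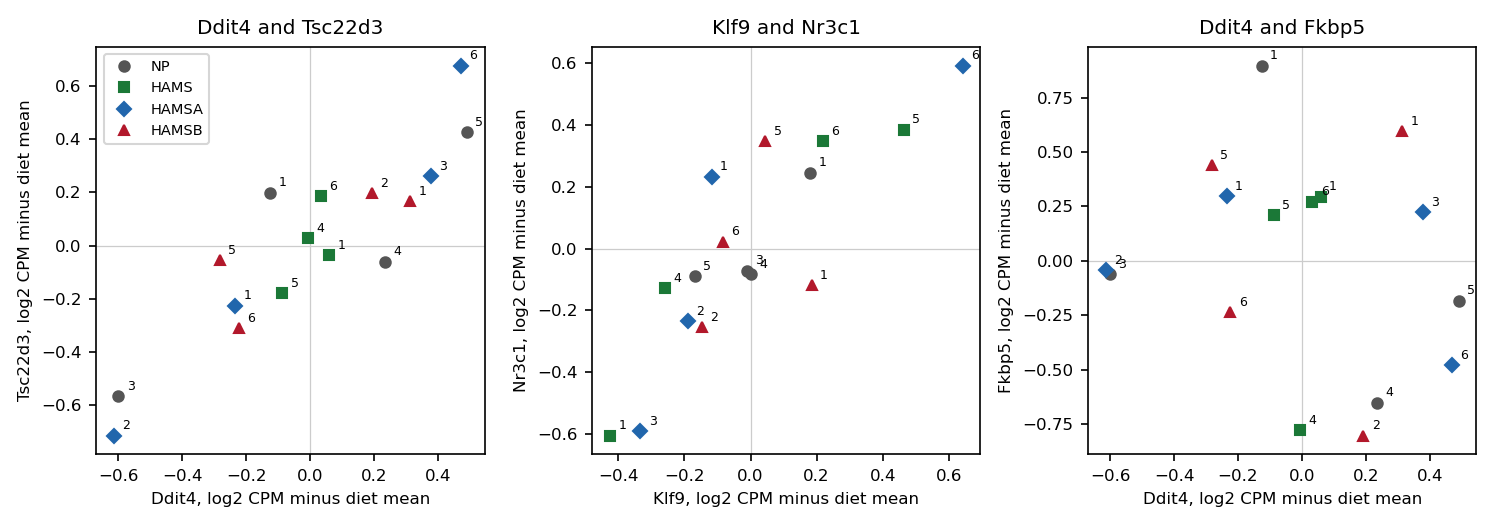
Deviation of each library from its diet mean in log2 CPM for 3 pairs of genes, 1 gene on each axis, with the library number beside each point and symbols by diet. Points rise together for Ddit4 with Tsc22d3 (r = 0.894) and for Klf9 with Nr3c1 (r = 0.847), and are scattered for Ddit4 with Fkbp5 (r = -0.209).

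The genes most like each member across all 16 libraries, diet differences included, were taken from 10107 genes and are a description of libraries that share depth and diet. Nearest to Tsc22d3 were the chemokine receptor gene Cxcr4 (r = 0.973), the salt-inducible kinase gene Sik1 (r = 0.973), the phosphatase gene Dusp1 (r = 0.930), Ddit4 (r = 0.928) and the interleukin 10 receptor gene Il10ra (r = 0.920). Ddit4 had Tsc22d3 as its nearest gene, then Sik1 (r = 0.917), Zcchc18 (r = 0.897), Zfp1 (r = 0.893) and Cxcr4 (r = 0.875), so Sik1 and Cxcr4 were on both lists. Nr3c1 was nearest to the inositol transporter gene Slc5a3 (r = 0.980), the B cell adaptor gene Bank1 (r = 0.975), Foxo1 (r = 0.974), Skil (r = 0.974) and Nmt2 (r = 0.970). Fkbp5 was nearest to the phosphatase gene Ptpn22 (r = 0.915), followed by Gramd4 (r = 0.833), St6galnac2 (r = 0.776), BC018473 (r = 0.772) and Frat2 (r = 0.763). Sgk1 had Mat2b (r = 0.899), Ranbp9 (r = 0.876), Fbxo8 (r = 0.873), Sidt1 (r = 0.870) and Cd28 (r = 0.864), and Klf9 had Ubxn2a (r = 0.897), Ankrd33b (r = 0.892), Ccar1 (r = 0.885), Kif1b (r = 0.883) and Ncoa7 (r = 0.882). No gene was on the lists of 3 members.

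Of 24 other genes that glucocorticoids are known to induce, 23 were measured. On HAMSB against HAMS, 6 of the 23 fell and 1 rose, against 1.24% of all genes called lower and 0.433% higher. The median log2 fold change was -0.23 against 0.01 over all genes tested. Dusp1, which switches off MAP kinases, had a log2 fold change of -2.27 ± 0.25 (53.0 ± 10.7 CPM on HAMS and 11.03 ± 1.81 on HAMSB, adjusted p = 0.000312). Cebpb, a transcription factor of inflammatory and metabolic genes, fell from 33.1 ± 16.2 to 4.32 ± 0.777 CPM (-2.93 ± 0.40, adjusted p = 0.00129) and Cxcr4, which guides B cells to marrow and follicles, from 849 ± 99.9 to 258 ± 27.5 CPM (-1.72 ± 0.28, adjusted p = 0.00447). Lpin1, a lipid phosphatase gene, went the other way, from 21.5 ± 1.95 to 31.7 ± 2.79 CPM (0.56 ± 0.09, adjusted p = 0.00447). The count of 7 calls became 4 without HAMS 5, HAMSB 1, HAMSB 2 or HAMSB 6, and 4 with libraries numbered 1 to 4 alone. Dusp1 is also among the handling genes above, and genes of this list can respond to other signals.

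In HAMS against NP, 5 of the 23 rose and 2 fell, against 2.27% of all genes called higher and 2.06% lower. The median log2 fold change was 0.22 against 0.01 over all genes tested. Dusp1 rose by 1.85 ± 0.25 on the log2 scale (adjusted p = 0.00132) and Rasd1, a dexamethasone-induced Ras gene at under 1 CPM, by 2.13 ± 0.43 (adjusted p = 0.0105). Lpin1 had a log2 fold change of -0.62 ± 0.09 (adjusted p = 0.00163), and Zbtb16, the gene of the factor PLZF, went from 3.01 ± 1.52 CPM on NP to 0.266 ± 0.181 on HAMS (-3.49 ± 0.53, adjusted p = 0.00205, edgeR). The 7 calls became 4 without NP 3 or NP 4 and 1 with libraries numbered 5 and 6 alone. HAMSA against HAMSB called 0.586% of all genes higher. There 2 of 23 rose, Cebpb (2.57 ± 0.39, adjusted p = 0.0111) and Dusp1 (1.26 ± 0.25, adjusted p = 0.0273 in edgeR's test), with a median of 0.38. The 2 calls became 1 without HAMSA 1, HAMSB 1 or HAMSB 6 and 0 without HAMSB 5. HAMSA against NP called 0.606% of all genes higher and 0.806% lower. Of the 23, the metallothionein gene Mt2 rose there (2.30 ± 0.39, adjusted p = 0.0211) and Zbtb16 fell by 2.37 ± 0.51 on the log2 scale (adjusted p = 0.0395 in edgeR's test), with a median of 0.39. That count of 2 became 1 without NP 1, HAMS 6, HAMSA 1, HAMSA 3 or HAMSB 1 and 0 without NP 3, NP 4, NP 5 or HAMSA 2. None of the 23 passed on HAMSA against HAMS (median 0.26; Dusp1 -1.001 and Mt2 1.33, adjusted p = 0.300 each) or on HAMSB against NP (median -0.06; Cebpb -1.61 with adjusted p = 0.186 and Zbtb16 -1.71 with adjusted p = 0.257), where DESeq2 called 1 and 2 and 8 and 6 had an unadjusted p under 0.05 in edgeR's test. Without HAMSA 6, edgeR called 1 on HAMSA against HAMS.

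**Figure D4:**
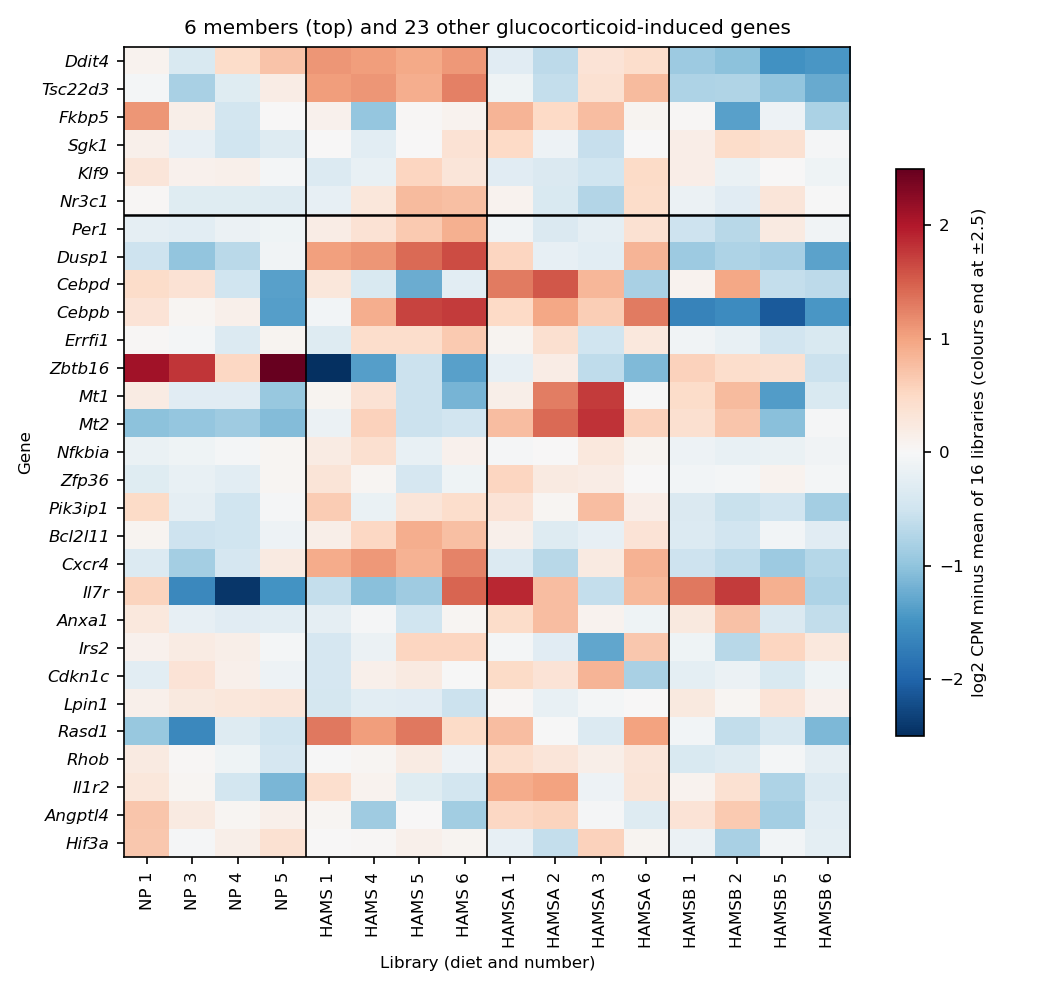
Log2 CPM minus the mean of the 16 libraries (colour, ending at ±2.5) for the 6 members above the line and the 23 other measured glucocorticoid-induced genes below it, with libraries in columns by diet. Dusp1 and Cxcr4 resemble Ddit4 and Tsc22d3 in being high on HAMS and low on HAMSB, while Zbtb16 is highest on NP and lowest on HAMS.

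The receptor's chaperones and cofactors make up 16 genes, all measured. Of these, 6 fell on HAMSB against HAMS and 6 rose on HAMS against NP: Dnaja1, Hspa8, Stip1, Fkbp4, Ptges3 and Hsp90aa1 in both comparisons, which share the HAMS libraries. Of all genes, 1.24% were called lower in the first comparison and 2.27% higher in the second. Hsp90aa1 passed narrowly in the second, at an adjusted p of 0.04995 in edgeR's test. Dnaja1, an HSP40 co-chaperone, stood at 299 ± 68.3 CPM on HAMS, 78.3 ± 0.938 on HAMSB and 74.0 ± 17.6 on NP (log2 fold changes -1.93 ± 0.31 and 2.02 ± 0.31, adjusted p = 0.00447 and 0.00244). Hspa8, the constitutive HSP70, had log2 fold changes of -1.17 ± 0.20 and 1.08 ± 0.20 (adjusted p = 0.00629 and 0.00735). Stip1, which joins HSP70 to HSP90, had log2 fold changes of -1.42 ± 0.25 and 1.25 ± 0.25 (adjusted p = 0.00686 and 0.0105). Fkbp4, the paralogue of Fkbp5 that acts in the opposite direction on the receptor, had log2 fold changes of -0.87 ± 0.15 and 0.72 ± 0.15 (adjusted p = 0.00686 and 0.0149). The list's median was -0.13 on HAMSB against HAMS and 0.19 on HAMS against NP. The 6 calls of HAMS against NP became 3 without NP 3, NP 4 or HAMS 6 and with libraries numbered 5 and 6 alone, and the 6 of HAMSB against HAMS became 2 with libraries numbered 1 to 4 alone. No gene of the list passed edgeR's test in the other 4 comparisons, where 9 had an unadjusted p under 0.05 on HAMSA against HAMSB, 8 on HAMSA against NP, 3 on HAMSA against HAMS and 1 on HAMSB against NP. DESeq2 called 4 on HAMSA against HAMSB and 3 on HAMSA against NP, and leaving out HAMSA 3 or HAMSA 6 gave edgeR 1 call, on HAMSA against NP and on HAMSA against HAMS. The heat shock genes Hspa1a and Hspa1b of the handling list moved the same way, at 9.23 ± 7.02 and 15.6 ± 11.9 CPM on HAMS against 0.481 ± 0.113 and 0.591 ± 0.183 on HAMSB.

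Genes that glucocorticoids repress, mainly cytokines and costimulatory molecules, were mostly not called. Of 14 such genes 10 were measured, and 0 of 10 passed the test in 5 of the 6 comparisons by edgeR, DESeq2 or limma voom, with between 0 and 3 at an unadjusted p under 0.05. The exception was the chemokine gene Ccl3 on HAMSA against NP (0.782 ± 0.499 against 0.104 ± 0.106 CPM, log2 fold change 2.97 ± 0.70, adjusted p = 0.0481), which lost its call without any of 11 libraries: NP 3, NP 4, NP 5, HAMS 1, HAMS 4, HAMS 6, HAMSA 1, HAMSA 2, HAMSA 3, HAMSB 1 and HAMSB 6. On HAMSB against HAMS the costimulatory genes Cd40 and Cd86 had log2 fold changes of 0.21 and -0.28 (adjusted p = 0.449 and 0.464).

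Around Ddit4, 14 regulators and parts of mTORC1 were measured. Sesn1, a sestrin that also restrains mTORC1, was the only one called, lower on HAMSB than on HAMS (219 ± 9.83 against 357 ± 53.4 CPM, -0.71 ± 0.16, adjusted p = 0.0400). It lost that call without any of 10 libraries: NP 4, NP 5, HAMS 1, HAMS 5, HAMS 6, HAMSA 1, HAMSB 1, HAMSB 2, HAMSB 5 and HAMSB 6. Ddit4 is also induced with the targets of the stress factor ATF4, of which 9 of 11 were measured. Ddit3 and Trib3 fell on HAMSB against HAMS (-0.67 ± 0.11 and -0.53 ± 0.12, adjusted p = 0.00602 and 0.0300), a count of 2 that became 1 without HAMS 1, HAMS 4, HAMS 6 or any HAMSB library. It was also 1 with the replicate block and with libraries numbered 1 to 4 alone. Both rose on HAMS against NP (0.62 ± 0.11 and 0.83 ± 0.12, adjusted p = 0.00668 and 0.00149). Trib3 also rose on HAMSA against NP (0.64 ± 0.12, adjusted p = 0.0297) and Atf5 on HAMSA against HAMSB (0.79 ± 0.18, adjusted p = 0.0483), but no gene of the list was called on HAMSA against NP without NP 3, NP 4, NP 5, HAMSA 1 or HAMSA 2. On HAMSA against HAMSB none was called without any 1 of 13 libraries, all but HAMS 1, HAMS 5 and HAMSA 6. The medians of this list were -0.41 on HAMSB against HAMS, 0.32 on HAMS against NP, 0.42 on HAMSA against NP and 0.34 on HAMSA against HAMSB.

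Among 10 measured genes of the Sgk1 kinases, their activators and their substrates, Nedd4l, a ubiquitin ligase that Sgk1 phosphorylates, was the 1 called. It was lower on HAMS than on NP (64.0 ± 9.45 against 119 ± 26.7 CPM, -0.89 ± 0.18, adjusted p = 0.0109) and lower on HAMSA than on NP (64.0 ± 10.3 CPM, -0.89 ± 0.18, adjusted p = 0.0377). The first call was lost with libraries numbered 1 to 4 alone. The second call was lost without NP 3, NP 4, NP 5, HAMSA 1, HAMSA 2 or HAMSB 1. Of 7 measured paralogues of the members, Fkbp4 alone was called, as given above, and its call on HAMS against NP was lost without NP 3, NP 4, HAMS 4 or HAMS 6. Tsc22d1, a gene of the same family as Tsc22d3, stood at 161 ± 40.8 CPM on HAMS and 87.9 ± 25.9 on HAMSB (-0.87 ± 0.29, adjusted p = 0.178), and Tsc22d2 and Tsc22d4 had log2 fold changes of -0.16 and -0.07. Klf13, with -0.17, and Sgk3, with -0.29, were not called either. Nr3c2, which encodes the mineralocorticoid receptor that also binds corticosterone, was near the limit of detection at 0.921 ± 0.0788 CPM on HAMS and 1.16 ± 0.317 on HAMSB.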

How the data were processed

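RNA of splenic B cells was measured in 16 libraries, 4 for each of 4 diets. The deposited table holds whole-number read counts per gene, unscaled. The tools named per the submitters' processing notes are STAR, featureCounts, Subread, edgeR and limma (versions, genome build and annotation release not given in the sources used here). A second deposited file gives counts of assigned and unassigned reads, and its assigned class equals the sum of each column. How reads shared by near-identical genes, or carrying NOD variants, were counted is not given either, and either kind can be missed.

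In R 4.3.3, edgeR 4.0.16 kept 15021 of 39179 genes (minimum count 10), scaled libraries by TMM and fitted 1 mean per diet to the 16 libraries (12 residual degrees of freedom). Diets were compared by the quasi-likelihood F-test, with Benjamini-Hochberg adjustment over all genes tested and a threshold of 0.05; SE and 95% intervals come from that fit. CPM are TMM-scaled, and log2 CPM use a prior count of 2. RPKM use exon lengths of GENCODE M21 (GRCm38), which matched 37693 gene identifiers. Of 164 genes in the lists, 154 passed the filter, and 5 were matched by identifier because the table has an older symbol. A marker gene is not reported here, and its list was summed without it. Pairs of members were related within diets with 100000 permutations. The test was run on simulated data with known changes first.

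The 6 members and the lists were chosen with earlier results of these data known. All members are named in each comparison; from each list up to 4 genes with the smallest p among those called are named, or at most 2 where none passed, and the 5 genes most like each member (average log2 CPM at least 1). Exceptions named after their values were seen are Cd40, Cd86, Hspa1a, Hspa1b, Ptges3, Hsp90aa1, Prdm1 and Prf1. Alternatives were DESeq2 1.42.0, limma voom (3.58.1), RLE scaling, no TMM, other filters, fewer samples and covariates, and leaving out each library. Splits by library number, thinning to the smallest total and the relations with library measures were added after seeing the data. Counting depth limits Klf9 and Sgk1 most, and the shallow HAMSA libraries limit its comparisons.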

Additional observations from a re-analysis of the deposited data

Results flagged for a closer look

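In 3 of the 24 sets of 4 libraries (6 genes, 4 diets) 1 library lay far from the other libraries of its diet by Dixon's test, which chance gives in about 1 of 20 such sets. Fkbp5 stood at 61.4 CPM in HAMS 4, against 122 to 129 CPM in the other HAMS libraries. Klf9 stood at 6.74 CPM in HAMSA 6, against 3.40 to 3.95 CPM in the other HAMSA libraries. Nr3c1 stood at 249 CPM in NP 1, against 198 to 200.2 CPM in the other NP libraries. None of these members was called in any comparison when the library was left out.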

How the results depend on the processing

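Of 1254 values of members under other settings, 1178 kept their side of the threshold and, in comparisons of 2 diets, their direction. Of the rest, 39 lost a call, 4 gained one, 33 changed sign with no call in either setting, and 0 changed sign with a call. The 1254 include the test for any difference among the diets, which has no direction. In HAMSB against HAMS both calls were kept without each of the 16 libraries and under the 14 other settings, with log2 fold changes of -2.50 to -2.05 for Ddit4 and -2.22 to -1.84 for Tsc22d3. Calls of members elsewhere depended on the setting, and the cause was not tested. DESeq2 called 1 member on HAMSA against HAMS (0 by edgeR) and 2 on HAMS against NP (1 by edgeR), where the covariate for reads outside features (adding Nr3c1, adjusted p = 0.0293) and libraries numbered 1 to 4 also called 2 and libraries numbered 5 and 6 called 0. On HAMSA against HAMSB (2 calls), limma voom and library totals without TMM called 1, and only the 2 diets compared, the replicate block, the covariate for reads outside features and libraries numbered 1 to 4 called 0, with a range of 0 to 2 on leaving out 1 library. On HAMSB against NP (1 call), only the 2 diets compared, the replicate block and libraries numbered 1 to 4 called 0, with a range of 0 to 1 on leaving out 1 library. The relations of 2 members that passed went from 2 to 0 without the 2 farthest libraries, and stayed at 2 with RLE scaling. A group left with 1 library is assumed to vary like the other groups.

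The numbers of the labels were not taken to pair the libraries, since the labels do not say what a number stands for. As a check, the deviations of libraries from their diet means were correlated, which cannot settle whether numbers pair libraries. Same-numbered libraries of different diets had a correlation over 0.1 in 8 of 15 pairs (median 0.189, range -0.25 to 0.49), differently numbered ones in 29 of 81 (median -0.0583), and 2 of 16 libraries correlated best with one of their own number. With the replicate block the adjusted p was 0.0101 for Ddit4 and 0.0151 for Tsc22d3 on HAMSB against HAMS, 0.0473 for Tsc22d3 on HAMS against NP, 0.134 and 0.181 for Ddit4 and Tsc22d3 on HAMSA against HAMSB, and 0.311 for Ddit4 on HAMSB against NP.

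Counts of all genes called moved by over 1.5 times in some settings. In the order HAMSB against HAMS, HAMSA against HAMS, HAMSA against HAMSB, HAMS against NP, HAMSA against NP, HAMSB against NP and any difference, edgeR called 252, 0, 117, 650, 212, 11 and 568 genes, DESeq2 602, 103, 576, 1264, 1295, 124 and 1894, and the replicate block 163, 0, 2, 378, 0, 5 and 264. Over the other settings these ranges were 74 to 602, 0 to 103, 0 to 576, 37 to 1264, 0 to 2694, 0 to 124 and 109 to 1894.

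Some log2 fold changes had the other sign, with no call in either setting. For Klf9 they were 0.26 on HAMSB against HAMS (numbers 1 to 4), 0.035 and 0.047 on HAMSA against HAMS (covariate, numbers 5 and 6), 0.24 and 0.52 on HAMSA against HAMSB (same settings), and 0.10 and 0.52 on HAMSA against NP (same settings). For Klf9 on HAMS against NP they were 0.0069 (DESeq2), 0.0066 (RLE scaling), 0.066 (covariate), 0.47 (numbers 5 and 6) and 0.074 (thinned). For Nr3c1 they were 0.068 (replicate block), 0.41 (covariate), 0.040 (a term for the 2 sets of numbers) and 0.30 (numbers 5 and 6) on HAMSA against HAMSB, and with numbers 1 to 4 -0.11 on HAMSA against NP and -0.040 on HAMSB against NP. Sgk1 gave -0.0054 on HAMSB against HAMS (numbers 5 and 6), and 0.029 (covariate) and 0.13 (numbers 1 to 4) on HAMSA against HAMS, and Fkbp5 gave 0.034 on HAMS against NP (numbers 5 and 6). On leaving out 1 library, Klf9 ranged from -0.28 to 0.028 on HAMSB against HAMS and from -0.18 to 0.12 on HAMS against NP, Sgk1 from -0.26 to 0.10 on HAMSA against HAMS and from -0.0071 to 0.34 on HAMSA against NP, and Nr3c1 from -0.28 to 0.11 on HAMSA against HAMSB and from -0.083 to 0.30 on HAMSA against NP.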
